A study of Homo sapiens with 12 samples.

Results

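The regions described here are the large domains of H3K36me3, the trimethylation of lysine 36 of histone H3, in RWPE-1, an established line of prostate epithelium carrying HPV18. Peaks of the deposited H3K36me3 list on chromosomes 1 to 22 were joined wherever the gap between them was at most 5000 bases, and a joined region was kept when at least 20000 of its bases lay inside peaks. This left 1020 large regions of 29596 joined regions, or 3.45%. The regions were thus chosen by their H3K36me3 peaks, so size, fill and peak number below are descriptions of what was chosen, and only the other 4 marks were measured independently of it.

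The series had 12 libraries of these cells, which were grown at a passage below 20 in serum-free keratinocyte medium with pituitary extract and EGF and carried no other treatment or genotype. Chromatin was sonicated and immunoprecipitated for H3K36me3, H3K4me3, H3K27ac, H3K4me1 or H3K27me3, with 2 libraries per mark. The remaining libraries, an input and a DNase library, were not analysed here. Both libraries of a mark share 1 deposited peak list, so no value has an error between replicates, no test over replicates was possible, and whether the replicates were separate cultures is not stated. The sequencing depth is unknown, since the lists hold no read counts. Intervals given in parentheses after a share are 95% Wilson intervals, which treat regions as independent and cover counting error only. The 112270 H3K36me3 peaks used here covered 108.3 Mb, beside 27415 H3K4me3, 59741 H3K27ac, 170539 H3K4me1 and 77756 H3K27me3 peaks.

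H3K36me3 is laid down by the methyltransferase SETD2, which travels with elongating RNA polymerase II, so the mark covers the bodies of transcribed genes and is most often dense towards their 3′ part. H3K4me3 marks promoters, H3K27ac marks active promoters and enhancers, H3K4me1 marks enhancers and the flanks of promoters, and H3K27me3 is the mark of Polycomb repression. A single transcribed gene would thus be framed by H3K4me3 on 1 side, and neighbouring genes could share a joined region. No gene annotation of hg19, the build of the lists, was used, so regions are given by position, counted from 1 with both ends included, without gene names.

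The large regions were few but held much of the mark. They contained 30.4% of all bases inside H3K36me3 peaks and 20.5% of the peaks. Together they spanned 51.0 Mb, of which 32.9 Mb lay inside peaks. The median span was 44446 bases (quartiles 34898 and 58574) and the median number of covered bases was 27636. Of the 1020 regions, 405 had 30 kb or more inside peaks, 98 had 50 kb or more and 5 had 100 kb or more. The threshold cuts a continuous range. The 3 regions just inside it had 20003, 20008 and 20022 covered bases, on chromosomes 16, 11 and 1, and the 3 just outside had 19997, 19996 and 19990, on chromosomes 16, 1 and 1.

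Most large regions were mosaics of many short peaks and not single blocks. The fill share, the part of the span that lies inside peaks, had a median of 66.9% and ran from 31.0% to 99.9%. It was under 50% in 140 regions, from 50% to under 75% in 573, from 75% to under 90% in 236, and 90% or more in 71. A region was built from a median of 21 peaks (quartiles 14 and 29), with 22 regions of fewer than 5 peaks and 79 of 40 or more. The widest peak of a region held a median of 16.2% of its covered bases. Their peaks were 869 bases wide in the median, against 599 for H3K36me3 peaks elsewhere, and the median of the score, which is the authors' value for each peak, was 150 against 97.8. The 21983 gaps between them were short: their median was 412 bases, 72.7% were under 1000 bases and 5.97% were 3000 bases or longer. MACS 1.4, the peak caller named in the submitters' processing notes, was designed for narrow peaks, and how far it sets the number of peaks and gaps was not tested.

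**Figure D1:**
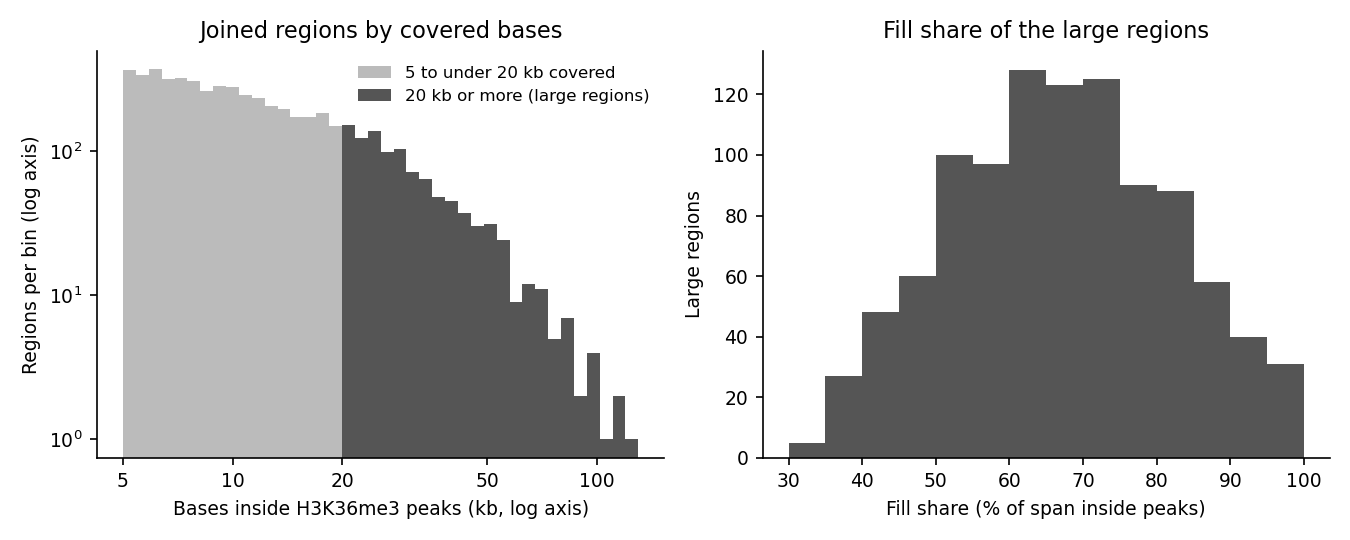
Left, joined H3K36me3 regions with at least 5 kb inside peaks, by covered bases (log axes), with the 1020 large regions in dark grey. Right, fill share of the large regions in bins of 5 percentage points, with a median of 66.9%. The counts run on through the 20 kb threshold without a break.

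The fullest regions were made of very few peaks. On chromosome 19 from 53937116 to 53959432, 2 peaks filled 99.9% of 22.3 kb, with 3 H3K4me3 peaks and no H3K27ac or H3K4me1 peak inside. On chromosome 4 from 190986376 to 191014415, 5 peaks filled 99.5% of 28.0 kb, and no peak of any of the other 4 marks lay inside. On chromosome 17 from 73717986 to 73755347, 4 peaks filled 99.5% of 37.4 kb, with 10 H3K4me1 peaks and H3K4me3 and H3K27ac at both ends. On chromosome 9 from 139390347 to 139439842, 3 peaks filled 99.1% of 49.5 kb, with H3K27ac over 21.6% of it. The other 1 of the 5 fullest was on chromosome 8, whose 20 large regions are counted throughout and not named. These 4 regions thus had the same near-complete fill beside contents that ran from no other mark to all 3 active ones.

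H3K4me3 stood at the ends of most large regions. An end was counted as marked when a peak shared at least 1 base with the 10 kb on either side of it. H3K4me3 was at both ends of 384 regions, or 37.6% (34.7 to 40.7), at 1 end of 460, or 45.1% (42.1 to 48.2), and at no end of 176, or 17.3% (15.1 to 19.7). With windows of 5 kb on each side, both ends and no end were equally frequent, at 23.5% each. Over all joined regions the shares in 10 kb windows were 27.2%, 12.6% and 60.2%, but most of those are so short that 1 peak serves both ends. Among the 4408 smaller regions with 5 to under 20 kb inside peaks, 27.3% (26.0 to 28.7) had it at both ends and 30.2% (28.9 to 31.6) at none, and many of these also span less than their windows. Among the 1673 of them that spanned at least 20 kb, a subset taken after the data were seen so that the windows do not overlap, 19.1% (17.3 to 21.1) had H3K4me3 at both ends, 48.8% at 1 end and 32.1% (29.9 to 34.4) at none. The share with both ends was higher in the large regions than in this subset on 20 of 22 chromosomes, and the share with no end was lower on 21.

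The mark was at the ends more than in the middle. In the 628 large regions that spanned at least 40 kb, the lower-coordinate end had H3K4me3 in 57.2% (53.3 to 61.0) and the higher-coordinate end in 56.2% (52.3 to 60.04), while a window of the same 20 kb at the centre had it in 21.97% (18.9 to 25.4). The windows match in length only. An end window has 10 kb outside the region, where the joining rule leaves the nearest 5 kb without H3K36me3 peaks. How far this sets the contrast was not tested. Of the 460 regions with H3K4me3 at 1 end, it was at the lower-coordinate end in 239, or 52.0% (47.4 to 56.5). At the 1228 ends with H3K4me3, the nearest H3K4me3 peak lay outside the region in 57.6%, ran across the end in 26.8% and lay inside in 15.6%, at a median distance of 1086 bases from the end. The most frequent place was thus beyond the outermost H3K36me3 peak and not under it.

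H3K27ac was at the ends more often still. It was at both ends of 572 regions, or 56.1% (53.0 to 59.1), at 1 end of 387, or 37.9% (35.01 to 40.96), and at no end of 61, or 5.98% (4.68 to 7.61). The shares over all joined regions were 47.2%, 12.0% and 40.8%. Both ends was not the most frequent class in other windows: with 5 kb on each side, 37.3% of the large regions had both ends, 50.6% 1 end and 12.2% none, and with the outer 10 kb only, 43.8% had both and 46.2% 1 end. Among all smaller regions 48.7% (47.3 to 50.2) had both ends marked and 14.5% none. In the smaller regions spanning at least 20 kb the 3 shares were 41.1% (38.8 to 43.5), 44.7% and 14.2% (12.6 to 16.0), with both ends less frequent than in the large regions on 21 of 22 chromosomes. H3K27ac differed from H3K4me3 in the middle of the regions: in those spanning at least 40 kb, the centre window had it in 48.4% (44.5 to 52.3), against 73.4% and 72.6% at the ends. The limit on comparing end and centre windows applies here too.

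**Figure D2:**
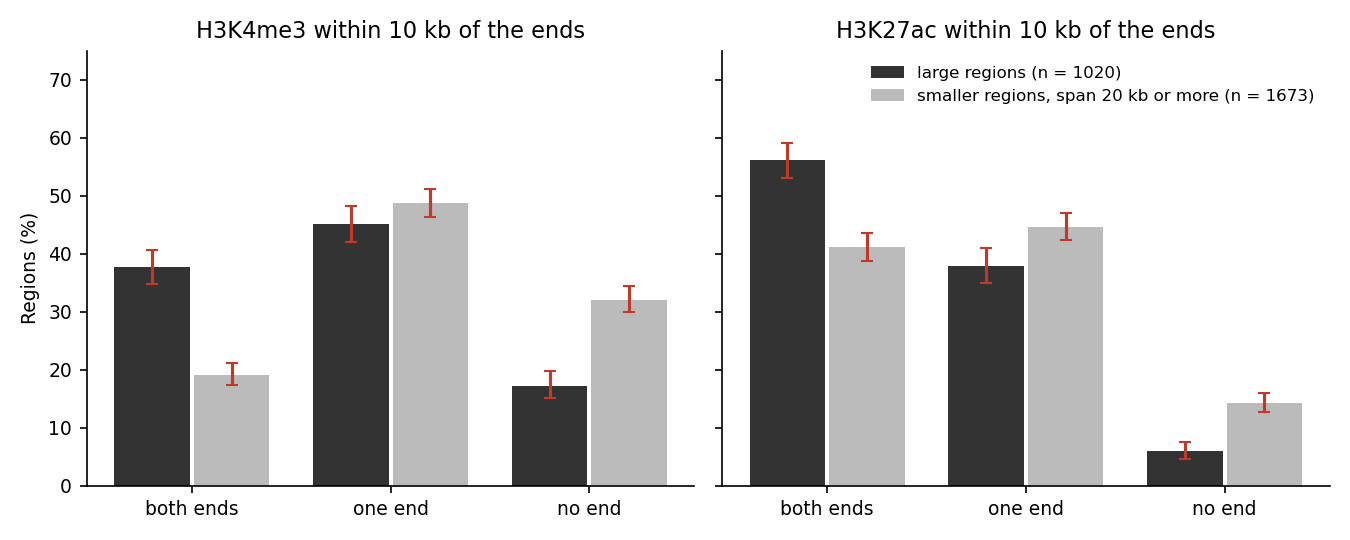
Share of regions with H3K4me3 (left) or H3K27ac (right) within 10 kb of both ends, 1 end or no end, for large regions and for smaller regions spanning at least 20 kb; error bars are 95% Wilson intervals. Large regions had both ends marked more often and no end marked less often, for either mark.

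The 2 marks went together at an end. Of the 1228 ends with H3K4me3, 1160 also had H3K27ac, or 94.5% (93.0 to 95.6), and of the 812 ends without it, 371 had H3K27ac, or 45.7% (42.3 to 49.1). The largest joint class, with both marks at both ends, held 331 regions, followed by 268 with either mark at 1 end and 185 with H3K4me3 at 1 end and H3K27ac at both. Only 7 regions with H3K4me3 at 1 end, and 0 with H3K4me3 at both, lacked H3K27ac at the ends. In 54 regions, 5.29%, neither mark was at any end. In the regions with H3K4me3 at 1 end only, H3K27ac was at that end in 96.7% (94.7 to 98.0) and at the opposite end in 42.0% (37.5 to 46.5). How often H3K27ac lies as near to H3K4me3 elsewhere was not counted, so the pairing is not shown to be particular to large regions.

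The share with H3K4me3 at both ends had no steady order with size. From 20 to under 25 kb covered (377 regions), 34.7% had it, and at 40 kb or more (200 regions) 36% did, with 44.1% and 37.1% in the size classes between. The median fill share was 71.8% where H3K4me3 was at both ends, 65.7% where it was at 1 and 60.3% where it was at none, and the median span was 41384, 45584 and 47979 bases. Chromosome 19, whose large regions had a median fill of 75.9%, held 91 of the 384 regions with H3K4me3 at both ends. The order of fill was not recomputed without it. Of the 176 regions with H3K4me3 at no end, 36 had it inside. Counting also peaks already counted at an end, 609 large regions, 59.7%, were touched by H3K4me3 between their outer limits. The share was 11.5% of all joined regions and 30.9% (28.7 to 33.2) of the smaller regions spanning at least 20 kb. A longer region offers more bases to touch, and these 3 shares were not adjusted for length.

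Inside the regions, H3K4me3 and H3K27ac lay in the gaps of H3K36me3 more than under its peaks. H3K4me3 covered 5.15% of the bases in gaps and 2.76% of the bases inside H3K36me3 peaks, 1.87 times as much, and was higher in gaps on 20 of 22 chromosomes. H3K27ac covered 14.5% of the gap bases and 7.78% of the peak bases, also 1.87 times as much, and was higher in gaps on 21 of 22. H3K4me1 made no such distinction, at 20.95% and 20.86%, with 10 chromosomes higher in gaps and 12 in peaks. The longer the gap, the more often an active mark was found in it. Of the 15989 gaps under 1000 bases, 1.501% were touched by H3K4me3 and 7.12% by H3K27ac, and of the 1312 gaps of 3000 to 5000 bases, 19.7% and 36.7% were. A long gap offers more bases to touch, a limit that the covered shares do not have.

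The 460 regions with H3K4me3 at 1 end could be laid out from that end to the other, and H3K4me1 and H3K27ac showed a slope that H3K36me3 did not. H3K4me3 set the direction and so gives no result here. H3K36me3 peaks covered 63.0% of the bases in the 50% of the length next to H3K4me3 and 63.1% in the remaining length. Peak width had medians of 839.5 and 851 bases in these 2 parts, and the score had medians of 147 and 144.5. H3K4me1 covered 27.7% of the bases next to H3K4me3 and 15.35% of those farther away, and 344 regions had more of it near the H3K4me3 end, 109 had less and 7 had equal amounts. The direction was the same on each of 22 chromosomes. H3K27ac covered 13.5% and 6.41%, with 275 regions higher near the H3K4me3 end and 110 lower, and with 21 of 22 chromosomes in that direction.

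In bins of 5% of the length, H3K4me1 was at 48.7% in the first bin beside the H3K4me3 end, 24.7% at 25 to 30% of the length, 18.6% just past the middle and 12.7% at 85 to 90%. H3K27ac was at 27.3% in the first bin, 8.42% just before the middle and 3.27% at 90 to 95%. In the last bin H3K4me1 was at 14.8% and H3K27ac at 4.85%, and in the 2 kb beyond the far end they were at 16.2% and 7.08%. Outside the H3K4me3 end, H3K27ac covered 59.5% of the nearest 2 kb. The nearness of promoters, which carry both marks, was not separated from the slope. With peaks of a score of 100 or more in every list, H3K4me1 was at 27.4% in the first 25% of the length and 9.24% in the last, against 33.9% and 13.9% with all peaks.

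**Figure D3:**
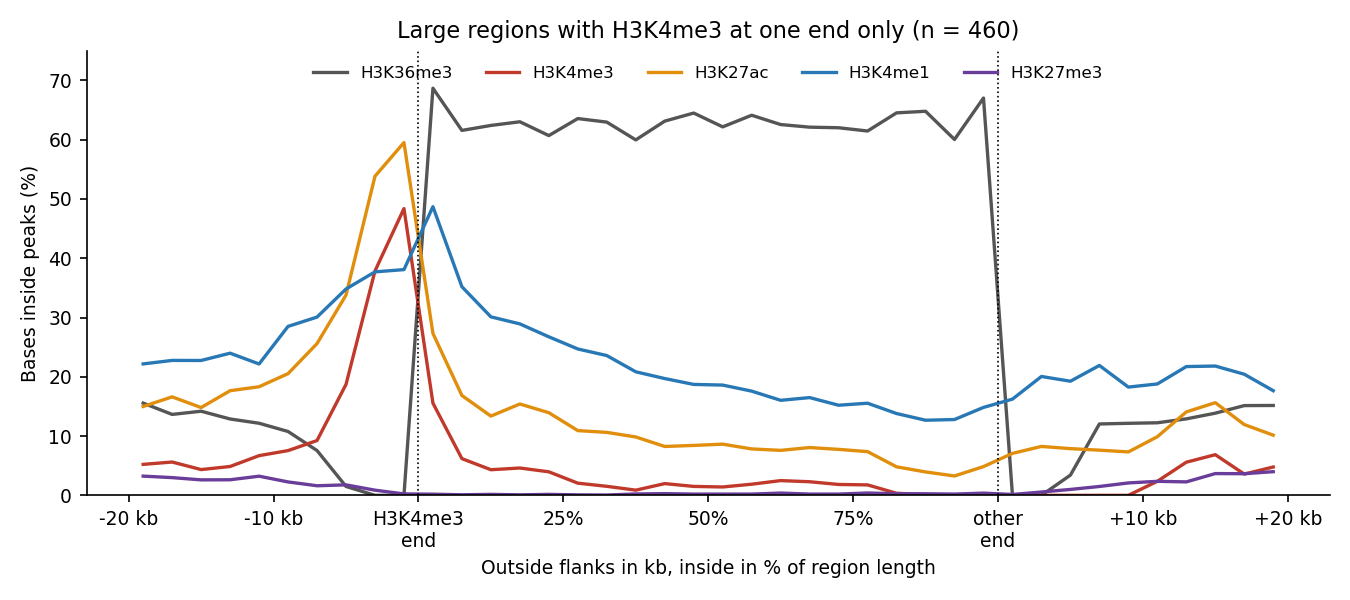
Share of bases inside peaks of each mark along the 460 large regions with H3K4me3 at 1 end only, drawn from that end (left dotted line) to the other (right dotted line); flanks are in bins of 2 kb and the inside in bins of 5% of the length. H3K4me1 goes from 48.7% to 12.7%. H3K36me3 stays near 63% inside, in regions chosen by this mark. The absence of H3K36me3 just outside the ends and of H3K4me3 within 10 kb of the right end follow from how the regions were chosen.

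H3K4me1 was found inside nearly all large regions. A peak of it touched 995 of the 1020, or 97.5% (96.4 to 98.3), against 54.4% of all joined regions, most of which are far shorter. The share was 87.4% (86.4 to 88.3) in all smaller regions and 94.98% (93.8 to 95.9) in those spanning at least 20 kb. H3K4me1 covered a median of 18.2% of the span (95% interval of the median 17.1 to 19.5; quartiles 9.78% and 28.9%). In all smaller regions the median was 14.9% (14.3 to 15.5), and in those spanning at least 20 kb it was 14.75% (13.9 to 15.7), with nearly the same number of peaks, 1.51 per 10 kb in the large and 1.53 in the smaller regions. H3K4me1 covered at least 50% of 54 of the 1020 large regions, under 5% of 111, and none of 25. The same counts were 99, 288 and 84 of the 1673 smaller regions spanning at least 20 kb. They were 373, 1014 and 556 of all 4408 smaller regions. Of the 8054 H3K4me1 peaks in the large regions, 6866 touched no H3K4me3, beside 12744 of 14770 in smaller regions and 118722 of 130942 outside every joined H3K36me3 region. H3K27ac touched 24.4% (23.4 to 25.4) of these 6866, compared with 27.9% (27.6 to 28.1) of such peaks outside and 20.97% (20.3 to 21.7) in smaller regions. H3K27me3 touched 3 of the 6866, or 0.0437%, and 1.45% of those outside. The H3K4me1 peaks of the large regions were a little wider than those outside, with medians of 918 and 767 bases.

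The regions richest in H3K4me1 carried H3K27ac over much of the same length. On chromosome 20 from 30251010 to 30310181, H3K4me1 covered 88.3%, H3K27ac 77.9% and H3K36me3 89.3% of 59.2 kb. The second, from 131628564 to 131682650 of chromosome 9, had 84.5%, 74.3% and 73.2% of its 54.1 kb covered by the 3 marks. The next, on chromosome 17 from 832329 to 880171, had H3K4me1 over 83.1% and H3K27ac over 42.2%, with H3K36me3 over only 46.5%. On chromosome 16 from 21501268 to 21531606 H3K4me1 covered 78.7% and H3K4me3 28.2%, and on chromosome 12 from 50570980 to 50613748 H3K4me1 covered 76.2% and H3K27ac 65.7%. All 5 had H3K27ac at both ends, and 3 had H3K4me3 at both.

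The region with most covered bases lay on chromosome 20 from 45836235 to 45983986. Its 35 H3K36me3 peaks filled 85.2% of 147.8 kb. Its rank rests on the joining gap: joined over 2 kb, its largest piece had 60382 covered bases, against 125849, and the region on chromosome 1 from 148249354 kept 91490. H3K4me3 was at the higher end, where a peak ran from 142.2 to 150.2 kb after the lower end and so across the limit, and H3K27ac was within 10 kb of both ends. Further H3K4me3 peaks lay inside, at 108.5 to 109.7, 110.2 to 112.4, 124.2 to 125.1 and 125.5 to 126.8 kb. Inside, H3K27ac and H3K4me1 lay mostly in the higher part, which held all of these H3K4me3 peaks. H3K27ac covered 7.85% of the lower-coordinate 50% of the length and 74.35% of the higher, and H3K4me1 33.5% and 68.2%. H3K36me3 was 89.5% and 80.85%, so the part with acetylation was also heavily covered by H3K36me3. The second region, on chromosome 9 from 130189283 to 130330983, was similar, with H3K27ac over 9.78% and 56.9% of its lower and higher parts, and had H3K4me3 at both ends. The third, on chromosome 20 from 46255140 to 46411727, had 111.9 kb inside 52 peaks and H3K27ac over 2.37% of its length. No H3K4me3 peak lay inside, and 1 lay 0.157 kb beyond its higher end.

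The others of the first 10 differed mainly in how much active mark they held. The region on chromosome 9 from 140603673 to 140732239 had H3K4me3 and H3K27ac at the lower end only, with H3K27ac over 17.4% of the lower 50% of its length and none of the higher. The region on chromosome 7 from 5345233 to 5457098 was its mirror, with both marks at the higher end and H3K4me1 over 5.18% and 45.9% of the lower and higher parts. On chromosome 9 from 139269039 to 139375552, 12 peaks filled 90.6% of 106.5 kb. On chromosome 9 from 94970051 to 95085644, H3K4me3 was counted at both ends. At the lower end this was a peak inside, 8.87 to 9.997 kb from it, and the nearest beyond that end was 60.3 kb away. Further H3K4me3 peaks lay inside at 10.8 to 11.6 kb and at 83.9 to 87.3 kb. The latter was overlapped by an H3K27ac peak at 83.9 to 88.6 kb. A pair on chromosome 1, from 148249354 to 148361372 and from 145266436 to 145371508, had fill shares of 86.5% and 85.0% and no H3K27ac peak inside. H3K4me1 covered 0.749% of the first of them and 10.4% of the other. Whether reads from other places in the genome were assigned to this pair was not tested. The remaining region was on chromosome 8. No H3K27me3 peak touched any of the 10. Joining over 2 kb also split the other 5 named regions on chromosomes 20 and 9, whose largest pieces had 40205 to 56841 covered bases. With scores of 100 or more, the region on chromosome 20 from 46255140 had 52736 and that on chromosome 9 from 140603673 had 64343.

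**Figure D4:**
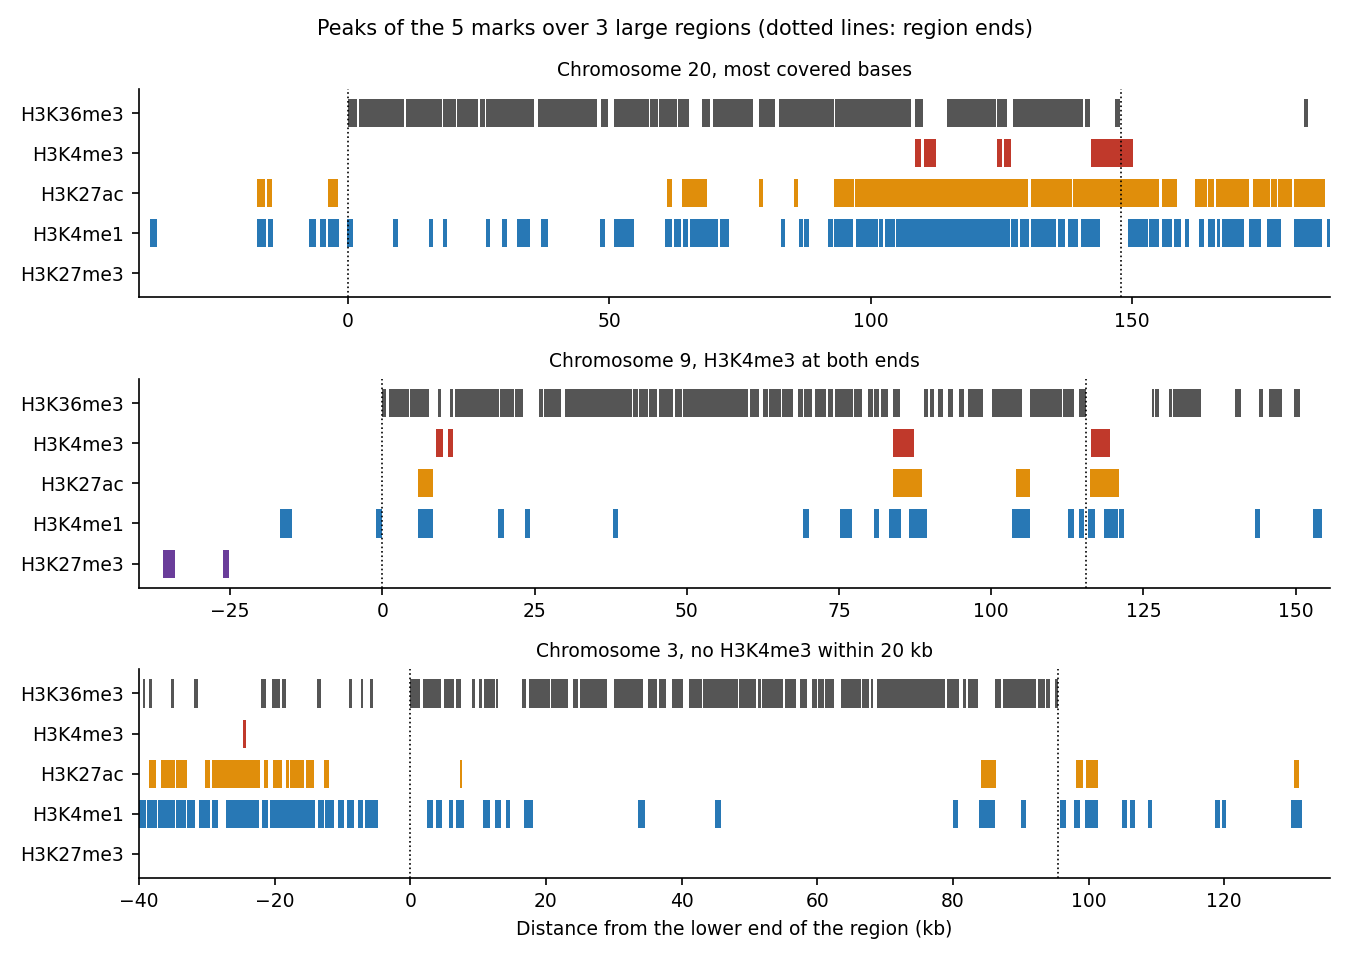
Peaks of the 5 marks over 3 large regions and 40 kb on each side, by distance from the lower end in kb; dotted lines are the region ends. The regions are the one with most covered bases (chromosome 20, 147.8 kb), one of the first 10 with H3K4me3 at both ends (chromosome 9, 115.6 kb) and the one with most covered bases among those without H3K4me3 within 20 kb (chromosome 3, spanning 95.6 kb), and H3K27ac fills the higher part of the first alone.

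A total of 92 large regions, 9.02% (7.41 to 10.9), had no H3K4me3 peak inside or within 20 kb on either side. Over all joined regions the share was 46.1%, and it was 20.3% (19.1 to 21.5) in all smaller regions and 21.2% (19.3 to 23.2) in those spanning at least 20 kb, higher in the latter than in the large ones on 19 of 22 chromosomes. The stretch searched grows with the span, whose median was 44446 bases in the large regions and 25987 in this subset. These shares were not adjusted for length. Among large regions the share was 15.1% with peaks of a score of 100 or more and 4.27% with joining over 10 kb. The 92 had nearly the same size as the others, with a median of 26510 covered bases against 27701, and slightly less full, at 62.4% against 67.2%. They were not bare of active marks. H3K27ac was inside 61, or 66.3% (56.2 to 75.1), and at an end of 65, or 70.7% (60.7 to 79.0), against 85.0% (82.6 to 87.2) and 96.3% (94.9 to 97.4) of the other 928. H3K4me1 was inside 83, or 90.2% (82.4 to 94.8), and covered a median of 11.8% of the span, against 19.1% in the others. Among smaller regions spanning at least 20 kb, H3K27ac was inside 59.3% (56.92 to 61.62) and at an end of 85.8% (84.02 to 87.37). The first share lay within the interval of the 92 and the second lay above it. Over all joined regions, most of them far shorter, H3K27ac was inside 6515 of 29596 and at no end of 40.8%. The H3K27ac shares were not adjusted for length.

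The distance from these regions to H3K4me3 was not compared with that from other places lacking it within 20 kb. The nearest peak was 20.5 to 120.2 kb away, with a median of 35.3 kb, and within 50 kb in 71 of the 92. The stretch between the region and that peak was richer in H3K36me3 than the chromosomes as a whole, at 17.5% covered against 3.76%, and also in H3K4me1 (29.3% against 6.25%) and H3K27ac (14.3% against 3.85%), while H3K27me3 was at 2.53% against 2.50%. Flanks of other large regions were also above these levels: at 10 to 20 kb beyond the end without H3K4me3 of the 460 regions with H3K4me3 at 1 end, H3K36me3 covered 13.9%, H3K4me1 20.1% and H3K27ac 12.3%. With joining over 10 kb, 57 of the 92 became part of a region with H3K4me3 within 20 kb, with 20 kb 85 did, and with 50 kb 88. A longer joined region also reaches more sequence in which H3K4me3 can lie.

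The region with most covered bases of the 92 was on chromosome 3 from 58062267 to 58157826, with 72.2 kb inside 54 peaks and H3K27ac at both ends. H3K4me3 lay 24.2 kb below it. On chromosome 9 from 136664985 to 136751006, H3K27ac covered 25.4% of the span and H3K4me1 29.1%, both mostly in the higher part, and the nearest H3K4me3 was 47.45 kb away. On chromosome 7 from 55201259 to 55277269, 24 peaks filled 82.2% of 76.0 kb, with H3K27ac at the lower end and H3K4me3 44.8 kb beyond the higher end. The region on chromosome 10 from 79536294 to 79632883, and that from 19399208 to 19503017 of chromosome 1, had H3K27ac over 8.05% and 3.695% of the span. H3K27ac was at both ends of the region on chromosome 14 from 69330988 to 69400486, and at no end of that from 22150319 to 22222572 of chromosome 1. Among the 9 named here, H3K4me3 was farthest from those on chromosome 16 from 16124573 to 16219850, at 79.4 kb, and on chromosome 11 from 12209890 to 12284519, at 72.4 kb. The tenth was on chromosome 8.

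Neither H3K27ac nor H3K4me1 was inside 9 of the 92, and 5 of these 9 lay on chromosome 9. That chromosome held 17 of the 92. H3K4me1 was inside 90.2% of the 92 and 98.3% (97.2 to 98.9) of the other 928 large regions. How often both marks were absent together from the other large regions or from smaller regions was not counted. Whether such regions are concentrated on chromosome 9 was not tested. Chosen after their values were seen, 3 of the 9 stood out by their fill: 3 H3K36me3 peaks filled 98.5% of 24.7 kb on chromosome 9 from 133487795 to 133512510, 8 peaks filled 98.0% of 30.1 kb on chromosome 20 from 17594389 to 17624475, and 4 peaks filled 93.0% of 23.3 kb on chromosome 9 from 136623976 to 136647257.

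H3K27me3 was rarely inside a large region. It touched 16 of them, or 1.57% (0.968 to 2.53), beside 1.58% of all joined regions, 0.726% (0.515 to 1.02) of all smaller regions and 0.897% (0.544 to 1.47) of those spanning at least 20 kb. It covered over 10% of the span in 2. It was within 10 kb of an end in 137, or 13.4% (11.5 to 15.7), against 8.23% of all joined regions and 8.19% (6.97 to 9.60) of the smaller regions spanning at least 20 kb. The large regions were higher on 15 of 22 chromosomes and lower on 6. The 2 exceptions inside differed in shape. On chromosome 9 from 115803213 to 115853112, 1 H3K27me3 peak covered 64.6% of a span that was 88.4% filled with H3K36me3. On chromosome 5 from 140761320 to 140813350, 15 H3K27me3 peaks covered 30.1% and 7 H3K4me3 peaks 12.5%, while H3K36me3 filled 52.6%. Pooled lists cannot tell whether both marks sit on the same chromosomes or in different cells.

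Of the other 3 regions with most H3K27me3, one was on chromosome 9 from 139698679 to 139747070, with 6.71% covered. The remaining pair lay on chromosome 16 and looked alike, from 21413501 to 21494614 and from 21845925 to 21926692. Their spans were 81.1 and 80.8 kb, with 48 and 45 H3K36me3 peaks and fill shares of 61.4% and 63.9%. H3K27ac covered 24.1% and 22.2% of them, H3K4me1 45.6% and 43.6%, and H3K27me3 4.04% and 3.635%. H3K4me3 was at no end of either, and H3K27ac was at 1 end of the first and none of the other. No source used here says how reads that match several places were treated, and whether the pair share sequence was not tested.

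The large regions were unevenly spread over the chromosomes. Chromosome 19 had 136, or 2.30 per Mb, against 0.354 per Mb over chromosomes 1 to 22, followed by chromosome 20 with 1.05 and chromosome 16 with 0.808 per Mb, and chromosome 13 had 5, or 0.0434 per Mb. Of the joined regions on chromosomes 19, 20 and 9, 12.1%, 10.2% and 8.01% were large, against 0.627% on chromosome 13. H3K36me3 peaks were wide on some of the same chromosomes. Their median width was 921 bases on chromosome 20, 917 on chromosome 9 and 882 on chromosome 19, and 735 and 728 on chromosomes 5 and 15, against 638 overall and 534 on chromosome 13. Chromosomes 16 and 17, with 0.808 and 0.714 large regions per Mb, had median widths of 688 and 642 bases. Chromosomes 5, 9, 15 and 20, with the widest peaks besides chromosome 19, together held 30.6% of the large regions and 16.2% of all joined regions. A sum of covered bases grows with peak width, and how far width sets these numbers was not tested.

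Chromosome 19 also differed in what lay at the ends. H3K4me3 was at both ends of 91 of its 136 large regions, or 66.9% (58.6 to 74.3), against 33.1% (30.1 to 36.3) of the 884 elsewhere. Chromosome 19 as a whole had 31.8 H3K4me3 peaks per Mb, against 5.27 to 16.8 on the other chromosomes. Its smaller regions spanning at least 20 kb had both ends marked in 44.8% (35.2 to 54.8), and those elsewhere in 17.6% (15.8 to 19.5), so large regions exceeded smaller ones on and off this chromosome. H3K27ac was at both ends of 58.8% (50.4 to 66.7) of the large regions on chromosome 19 and 55.7% (52.4 to 58.9) of those elsewhere. It accompanied H3K4me3 less often on chromosome 19: 192 of 220 H3K4me3 ends had it, or 87.3% (82.2 to 91.05), against 96.0% (94.6 to 97.1) of 1008 ends elsewhere. The other 21 chromosomes ran from 75% to 100%, and those below chromosome 19 had few ends, 4 on chromosome 13 and 23 on chromosome 4. The median H3K4me1 share was 12.8% on chromosome 19 and 19.3% elsewhere. Large regions without H3K4me3 within 20 kb were rare on it, at 3 of 136, and most numerous on chromosomes 9 and 5, with 17 of 104 and 14 of 82.

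**Figure D5:**
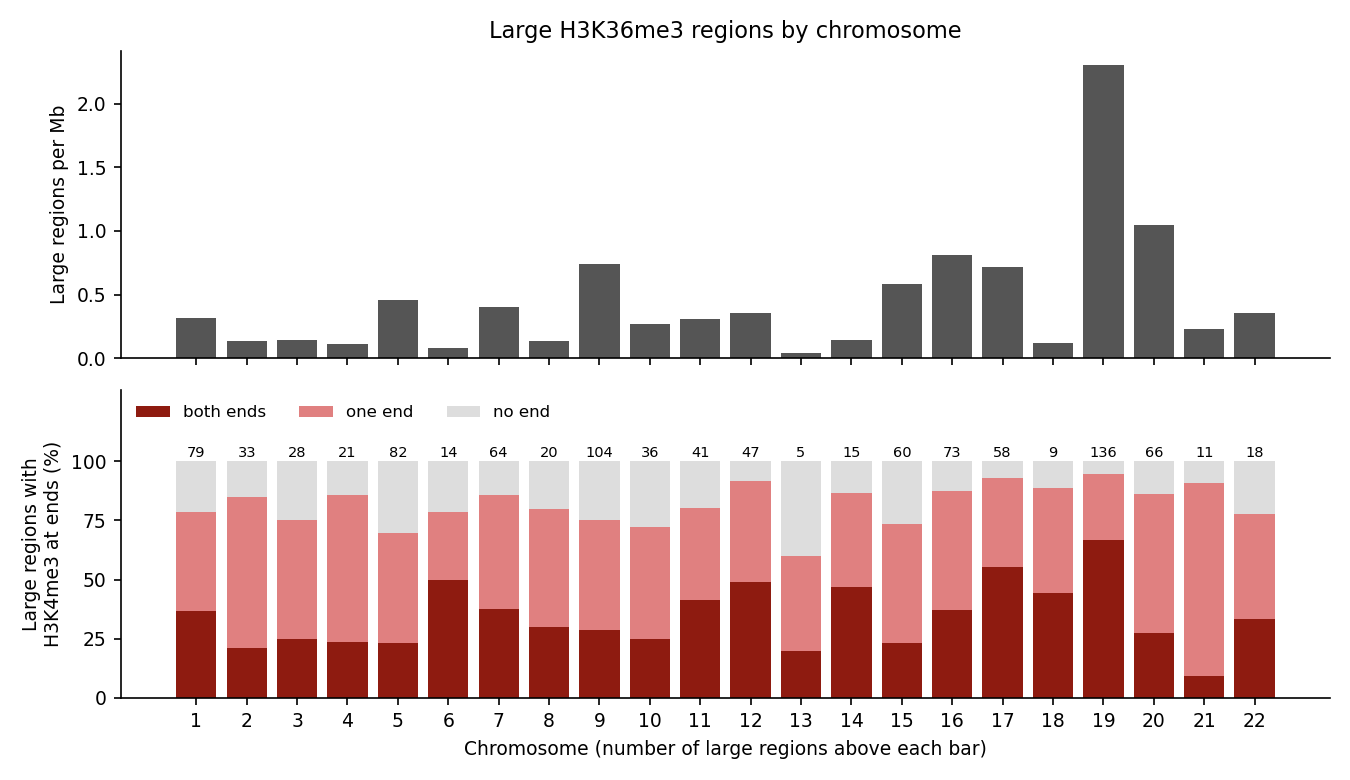
Large H3K36me3 regions per Mb of chromosome (top) and share of them with H3K4me3 within 10 kb of both ends, 1 end or no end (bottom), with the number of large regions above each bar. Chromosome 19 has the most regions per Mb, 2.30, and H3K4me3 at both ends of 66.9% of them; several chromosomes have under 20 regions.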

How the data were processed

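The deposited lists hold 1 position and 1 score per peak. The build is hg19 and the tools named are CASAVA 1.8.2, Bowtie2 and MACS 1.4, per the submitters' processing notes. No source used here gives settings, the control or how replicates were combined. The score deposited by the authors has no definition in a header; its lowest value of 50 fits -10 times log10 of p, and it was used only within a list. Only chromosomes 1 to 22 were used.

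Joining, touching (at least 1 shared base) and covered bases were computed with Python 3.11.15, numpy 2.4.6 and scipy 1.17.1, and checked base by base on simulated data (4460 checks, 0 mismatches). Named regions are the 10 with most covered bases, the 5 fullest, the 5 with most H3K4me1, the 10 largest without H3K4me3 within 20 kb, the 5 with most H3K27me3 and those nearest the threshold. The subset of smaller regions spanning at least 20 kb was added after seeing the data. Members, lists and this rule were chosen with earlier results of these data known. Alternatives were other joining gaps, sizes, windows, overlaps, scores and chromosomes. No test was run, since each mark has 1 pooled list. No hg19 sequence or gene annotation was used. The input and DNase libraries were left out.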

Additional observations from a re-analysis of the deposited data

How the results depend on the processing

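The 11 results were recomputed under 10 settings, 8 planned and 2 added after seeing the data, and 50 of 96 values stayed within the interval of the main value (for the number of regions, within 1.5 times). Joining over 2 kb left 493 regions with a median fill of 84.1%, 14 peaks, an H3K4me1 share of 14.2%, H3K4me3 at 1 end in 41.6% and none in 20.3%, H3K27ac at both in 52.5% and none in 8.32%, and no H3K4me3 within 20 kb in 12.2%. Joining over 10 kb gave a fill of 51.8%, 27 peaks, H3K4me1 20.4%, H3K4me3 at 1 end in 51.8% and none in 13.0%, and 4.27% without H3K4me3. A minimum of 30000 covered bases left 405 regions (fill 69.3%, 26 peaks). Scores of 100 or more left 621 regions, with fill 73.1%, 13 peaks, H3K4me1 11.3%, H3K4me3 at both ends in 32.5% and none in 21.3%, H3K27ac at both, 1 and no end in 47.8%, 43.0% and 9.18%, and 15.1% without H3K4me3. End windows of 5000 bases gave both, 1 and no end in 23.5%, 52.9% and 23.5% for H3K4me3 and 37.3%, 50.6% and 12.2% for H3K27ac. Windows outside the region only gave 27.1%, 50.9% and 22.1%, and 43.8%, 46.2% and 10%. Without chromosome 19 the fill was 65.1% and H3K4me3 at both ends 33.1%. Without chromosomes 5, 9, 15 and 20, H3K4me3 was at both ends in 42.8% and none in 14.1%, H3K27ac at none in 4.10%, and 7.35% lacked H3K4me3. The cause of these shifts was not tested. In windows of 5000 bases and in windows outside only, smaller regions spanning at least 20 kb had H3K4me3 at both ends in 9.03% and 13.2%, below the large regions as in the main windows. Of 27 values for the covered bases of the 9 named largest regions, 19 stayed within 1.5 times.

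No paired analysis was possible because each mark has 1 list for both replicates, and leaving out a replicate was not run for the same reason. Depth limits are unknown, since the lists hold no counts.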
